A study of Homo sapiens with 12 samples.

Results

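The 59 mitosis genes described here code for the machinery that divides the chromosomes: CDK1 and its cyclins, the mitotic kinases, the spindle checkpoint, the anaphase-promoting machinery, the chromosomal passenger complex, kinetochore proteins, kinesins, spindle and cytokinesis factors, condensin subunits, TOP2A, MKI67 and the transcription factor FOXM1. They were taken by name, as the probe sets whose annotated symbol was one of the 59. The list was chosen with earlier results of these data known. All 59 were among the 12887 genes tested, and all 59 lay above their array's median on all 12 arrays. The values are log2 intensities on Affymetrix arrays of total RNA from MDA231, a human breast cancer cell line of the triple-negative, mesenchymal kind. There were 4 groups of 3 arrays. The scramble group carried a control hairpin, the ETX group was the scramble line with ETX added, and the shCPT-1 and shCPT-2 groups carried hairpins against CPT1 and CPT2. ETX is not spelled out in the labels and is read here as etomoxir, an inhibitor of CPT1. CPT1 and CPT2 are the carnitine palmitoyltransferases, which act in turn to import long-chain fatty acids for oxidation in mitochondria.

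The hairpins were delivered by pGIPZ lentivirus, so all 4 groups, scramble included, were of virus-infected cells. The dose and length of the ETX treatment of the arrayed cells, the CPT1 isoform targeted, the number of hairpins for each gene and whether a line was 1 clone were not given in the labels. The question posed by the series was how each alteration of beta-oxidation changed expression against scramble. Independent culture of the arrayed samples is not stated in the labels, and the p-values therefore measure only the spread between these arrays, and the number of arrays limits their precision. In the shCPT-1 arrays CPT1A was at 8.19 ± 0.13 (SD, n = 3) against 9.78 ± 0.12 in scramble, and in the shCPT-2 arrays CPT2 was at 6.41 ± 0.19 against 7.41 ± 0.09. Array medians of linear intensity ranged from 74.9 to 77.2, and arrays of 1 group correlated at 0.994 to 0.999. The 5 mesenchymal markers of the line were all above the filter, with VIM at 14.5 in scramble, whereas CDH1 at 4.64, PGR at 4.31 and the leukocyte marker PTPRC at 4.35 were not above it. CDH1 and PGR belong to a list of 9 luminal epithelial markers, of which the other 7 were above the filter, with KRT18 at 12.8 and KRT8 at 10.9 in scramble. Of the 5 fibroblast markers 4 were above the filter, and of the 5 endothelial markers 3 were. On scramble, ETX, shCPT-1 and shCPT-2 arrays in turn, the log2 of the summed signal ranged from 9.23 to 9.34, 9.02 to 9.15, 9.21 to 9.26 and 9.11 to 9.13 for the fibroblast list. For the endothelial list it ranged from 8.74 to 8.84, 8.76 to 8.90, 8.44 to 8.60 and 8.45 to 8.53. For the luminal list it ranged from 13.55 to 13.63, 13.26 to 13.29, 13.74 to 13.79 and 13.43 to 13.53, so that no 2 groups overlapped. The part of these lists in the mitosis genes' values was not tested.

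Mitotic genes are switched on late in the cell cycle. Their promoters are held shut in resting and early-cycle cells by the DREAM complex at a short element called CHR (cell cycle genes homology region), and are opened in late cycle by MYBL2 and FOXM1 with the same core complex. The CCAAT box, bound by the factor NF-Y, often lies upstream of the CHR. CDK1 with cyclin B then drives entry into mitosis, the spindle checkpoint holds it until kinetochores are attached, and the anaphase-promoting complex with CDC20 ends it.

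Promoters of the 6 members with the largest changes against scramble are shown, since these genes moved in different ways. Whether they share the control described above was not tested. Each stretch holds the 200 bases before the annotated start of the gene, from RefSeq (GRCh38.p14), 5′ to 3′ on the gene's strand. Capitals mark the CHR letters TTTGAA or TTCGAA and the letters CCAAT, on either strand, so that a CCAAT box on the other strand reads ATTGG. The positions are chr17:8210226-8210425 on the minus strand for AURKB, and, on the plus strand, chrX:101100858-101101057 for CENPI, chr3:172750526-172750725 for ECT2, chrX:70289904-70290103 for KIF4A, chr5:138178912-138179111 for KIF20A and chr16:23678689-23678888 for PLK1.
AURKB: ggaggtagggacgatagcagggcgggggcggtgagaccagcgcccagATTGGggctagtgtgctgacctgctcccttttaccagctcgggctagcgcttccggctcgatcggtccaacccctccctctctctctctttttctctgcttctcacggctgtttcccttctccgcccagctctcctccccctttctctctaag
CENPI: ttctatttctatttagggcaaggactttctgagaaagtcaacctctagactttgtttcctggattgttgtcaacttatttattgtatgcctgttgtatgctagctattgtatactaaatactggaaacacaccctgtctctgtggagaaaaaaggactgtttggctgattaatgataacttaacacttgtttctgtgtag
ECT2: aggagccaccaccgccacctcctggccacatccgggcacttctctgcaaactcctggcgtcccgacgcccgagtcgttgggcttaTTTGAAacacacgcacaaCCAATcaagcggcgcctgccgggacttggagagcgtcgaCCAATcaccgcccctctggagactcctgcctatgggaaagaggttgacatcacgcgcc
KIF4A: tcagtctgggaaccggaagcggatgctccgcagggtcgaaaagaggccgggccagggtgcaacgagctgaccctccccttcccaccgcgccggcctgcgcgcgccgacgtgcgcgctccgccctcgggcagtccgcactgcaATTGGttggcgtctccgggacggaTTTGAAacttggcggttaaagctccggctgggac
KIF20A: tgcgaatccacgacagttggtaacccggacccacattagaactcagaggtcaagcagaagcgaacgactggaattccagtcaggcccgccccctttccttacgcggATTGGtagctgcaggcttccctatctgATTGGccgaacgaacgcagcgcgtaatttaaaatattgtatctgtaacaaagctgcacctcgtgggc
PLK1: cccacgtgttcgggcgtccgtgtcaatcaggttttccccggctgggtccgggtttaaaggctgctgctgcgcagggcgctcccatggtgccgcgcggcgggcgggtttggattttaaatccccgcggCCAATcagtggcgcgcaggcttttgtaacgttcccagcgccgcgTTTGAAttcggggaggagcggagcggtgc

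PLK1 and KIF4A had the arrangement typical of mitotic promoters in this stretch, a CCAAT box followed by a CHR near the start. In PLK1 the CCAAT began at base -73 and the TTTGAA at base -29, and in KIF4A the CCAAT began at -58 on the other strand and the TTTGAA at -34. ECT2 had a TTTGAA at -115 followed by CCAAT boxes at -97 and -58. KIF20A had CCAAT boxes at -94 and -67 and no CHR letters, AURKB had a CCAAT at -153 alone, and the CENPI stretch held neither motif. Start sites used by these cells were not measured, and 1 start per gene is listed. Other starts were not searched, so letters missing here, as for AURKB and CENPI, do not show that a gene's promoter lacks them. Whether the AURKB and CENPI stretches lie upstream of the gene's first exon was not tested.

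A promoter was matched for 49 of the 59 members. Over the window from 250 bases before to 50 bases after the start, both strands were searched. CHR letters (TTTGAA or TTCGAA, which do not overlap CCAAT) were found in 37 of the 49 member promoters (75.5%), against 11.3% of the 10431 tested genes with a promoter and 16.6% of all 27305 promoters in the table. TTTGAA was in 36 of the 49 and TTCGAA in 2, of which NDC80 held both. A CHR starting within 50 bases before the start was in 21 of the 49 (42.9%), against 1.68% of tested genes and 2.74% of all promoters. CCAAT was in 35 of the 49 (71.4%), against 36.5% and 35.7%, and both motifs together were in 29 (59.2%), against 4.81% and 6.58%. These shares describe the letters and not occupied sites.

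Of the 12 arrays, the 3 with ETX stood apart in the mitosis genes. Each array's median over the members, as the difference from each gene's mean over all arrays, was -0.20, -0.19 and -0.17 with ETX and lay between 0.01 and 0.09 on the other 9. On the ETX arrays 5, 6 and 7 of the 59 members were above their own mean, against 32 to 47 on the others. By group means, ETX was lowest for 44 members, scramble for 8, shCPT-1 for 6 and shCPT-2 for 1. Across the 4 groups 55 of the 59 members differed by limma's moderated F test after Benjamini-Hochberg adjustment over all genes, against 69.8% of all genes tested.

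**Figure D1:**
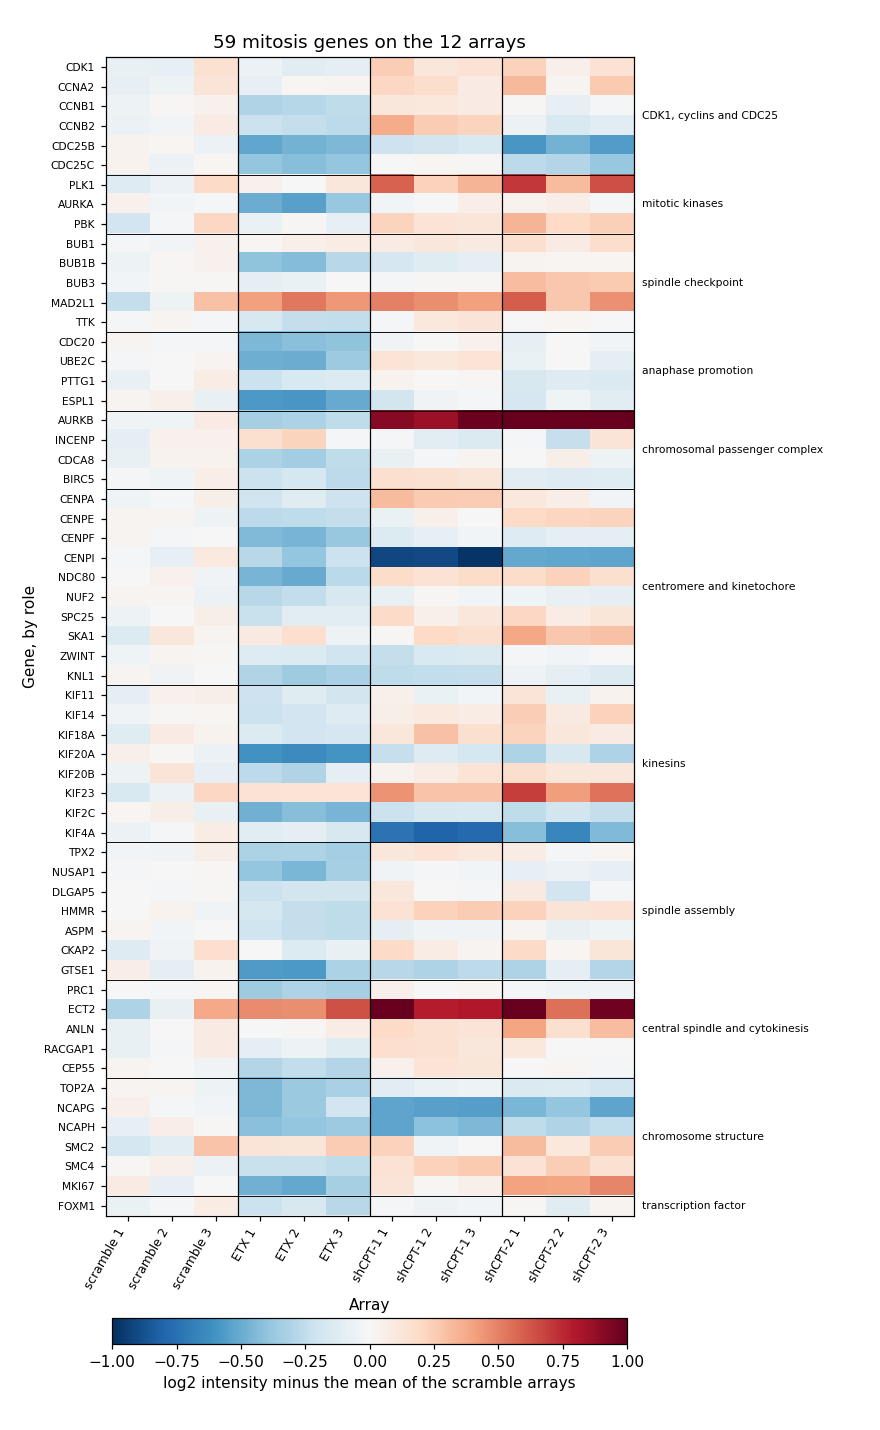
Heat map of the 59 mitosis genes (rows, by role) on the 12 arrays (columns, by group). Colour gives the log2 intensity minus the mean of the gene's 3 scramble arrays. The 3 ETX columns are below scramble for most rows, while the 6 knockdown columns are mixed, with AURKB high and CENPI, KIF4A and NCAPG low.

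With ETX, 42 of the 59 mitosis genes fell, 2 rose and 15 did not pass the test, where 19.4% of all genes tested were called lower and 21.9% higher. The changes were modest in size: the median over the 59 members was -0.23 on the log2 scale, against -0.01 over all genes tested, and the quartiles of the members were -0.38 and -0.11. The 42 lower calls make 71.2% of the members. Falls were found in each of the roles, from the cyclins to cytokinesis, and 50 of the 59 members had a negative difference. Because whole cultures were measured, fewer cells in mitosis and less RNA per mitotic cell cannot be told apart. The groups did not overlap for 46 members, against 49.5% of all genes tested. The count of rises was 4 without scramble 3, and 1 without scramble 1, scramble 2 or any 1 of the ETX arrays. The share of all genes called without these arrays is not given here.

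**Figure D2:**
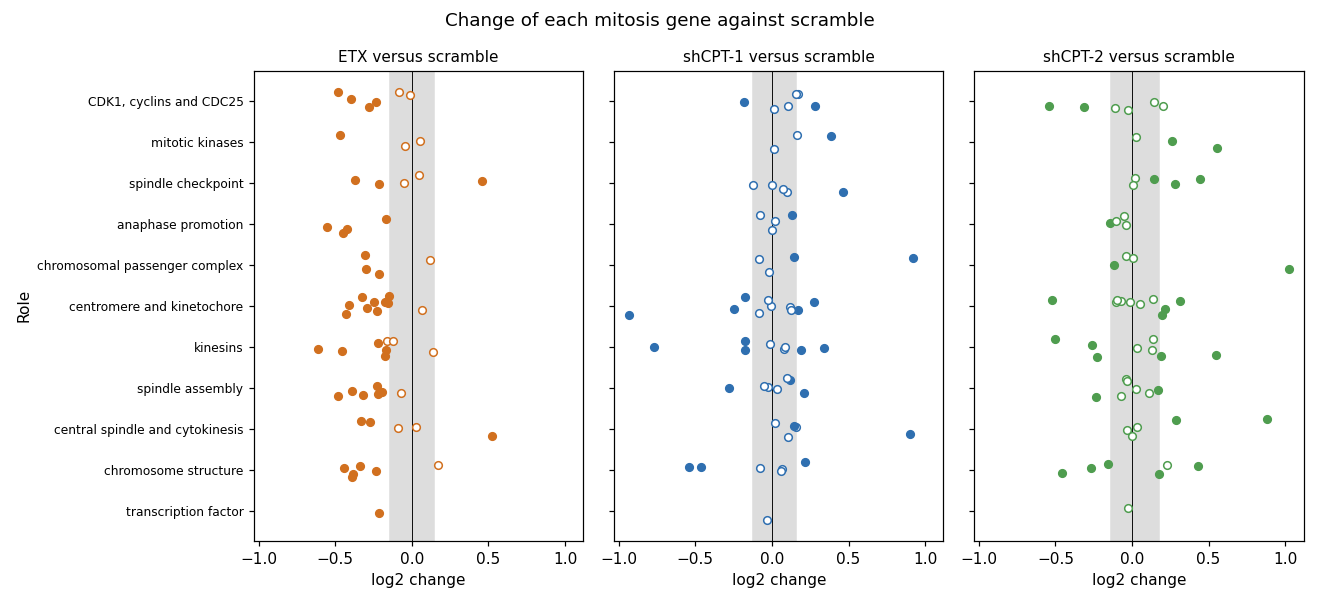
Log2 difference from scramble (horizontal axis) of each mitosis gene, by role (vertical axis, points spread at random within a role), for ETX, shCPT-1 and shCPT-2. Filled points are called, open points are not, and the grey band runs between the quartiles of all genes tested. The ETX points lie mostly below 0, to a low of -0.61 for KIF20A, whereas those of the knockdowns lie on both sides of 0.

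Among CDK1, the cyclins and the CDC25 phosphatases, 4 of 6 fell with ETX. CDK1, the kinase that drives entry into mitosis, had values of 12.33, 12.32 and 12.56 in scramble and 12.34, 12.29 and 12.32 with ETX. These ranges overlap, and the difference of -0.09 ± 0.07 (SE) did not pass the test (adjusted p = 0.327). With the 3′ minus 5′ signal of the actin controls as a covariate, a measure of RNA integrity described with ECT2, it was called lower, at -0.20 (adjusted p = 0.0189). CCNB1, the cyclin B1 subunit that activates it, had 12.28, 12.34 and 12.37 in scramble and 12.02, 12.04 and 12.07 with ETX. All ETX arrays were lower, and CCNB1 fell by 0.28 ± 0.04 (adjusted p = 0.000403). CDC25B, a phosphatase that removes the inhibitory phosphates from CDK1, had 11.62, 11.61 and 11.53 in scramble and 11.07, 11.11 and 11.14 with ETX, and fell by 0.48 ± 0.05 (adjusted p = 1.47e-05). CCNB2 and CDC25C fell by 0.24 and 0.40. CCNA2, cyclin A2, which acts from S phase into early mitosis, had 10.52, 10.55 and 10.73 in scramble and 10.52, 10.62 and 10.63 with ETX. It stayed within its spread, at a difference of -0.01 ± 0.08 (adjusted p = 0.902).

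Of the 3 mitotic kinases 1 fell. AURKA, which matures the centrosomes and builds the spindle poles, had 12.15, 12.08 and 12.09 in scramble and 11.61, 11.57 and 11.73 with ETX. It fell by 0.47 ± 0.05 (adjusted p = 4.16e-05), or 1.39-fold. Its standing probe set is of a type that can bind related transcripts. Another kept probe set of that type was also called lower, at -0.42 (adjusted p = 8.63e-05). On the remaining kept probe set, a dim one of the other type with a mean of 6.99, the difference was -0.17 (adjusted p = 0.0707). PLK1, which acts from mitotic entry to cytokinesis, had 8.67, 8.73 and 8.98 in scramble and 8.83, 8.79 and 8.91 with ETX, which overlap (0.05 ± 0.12, adjusted p = 0.745). PBK, a kinase of mitotic cells, was likewise not called, at -0.05.

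All 4 genes of anaphase promotion fell with ETX. ESPL1, the protease separase that cuts cohesin, had 10.63, 10.66 and 10.54 in scramble and 10.04, 10.03 and 10.10 with ETX, a fall of 0.55 ± 0.06 (adjusted p = 2.69e-05). UBE2C, the ubiquitin-conjugating enzyme of the anaphase-promoting complex, fell by 0.45 and CDC20, its activator, by 0.42. PTTG1, the securin that restrains separase, fell by 0.17 (adjusted p = 0.0113). The arrays of the groups did not overlap for any of the 4, nor for 49.5% of all genes tested.

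In the spindle checkpoint, 2 of 5 genes fell and 1 rose. BUB1B, the checkpoint protein BubR1, fell by 0.37 (adjusted p = 0.000151) and TTK, the kinase that starts the signal, by 0.21. MAD2L1, the Mad2 protein that inhibits CDC20, had 10.02, 10.20 and 10.54 in scramble and 10.66, 10.78 and 10.69 with ETX. It rose by 0.46 ± 0.11 (adjusted p = 0.00712), with a wide spread in scramble. BUB1 and BUB3 were not called, at 0.05 and -0.05.

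Of the 4 chromosomal passenger genes 3 fell, AURKB by 0.30 (adjusted p = 0.000718), CDCA8 by 0.31 and BIRC5 by 0.22. AURKB is the kinase of this complex, which corrects faulty attachments, and CDCA8 (borealin) and BIRC5 (survivin) are its subunits. INCENP, the scaffold, had a difference of 0.12 (adjusted p = 0.29). In the kinetochore group 9 of 10 fell. CENPF fell by 0.43, NDC80, the microtubule-binding subunit of the outer kinetochore, by 0.41 and its scaffold KNL1 by 0.33, while SKA1 was not called, at 0.07.

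Among the kinesins 5 of 8 fell. KIF20A, a motor of the central spindle needed for cytokinesis, had the largest fall of the 59 members: 11.94, 11.89 and 11.82 in scramble against 11.28, 11.24 and 11.29 with ETX. That is a fall of 0.61 ± 0.05, or 1.53-fold (adjusted p = 6.93e-06). KIF2C, which takes apart microtubule ends at the kinetochore, had 11.73, 11.76 and 11.63 against 11.23, 11.28 and 11.24, a fall of 0.46 ± 0.05 (adjusted p = 2.35e-05). KIF11, KIF14 and KIF20B fell by 0.17, 0.18 and 0.22. KIF4A and KIF18A, at -0.12 and -0.17, and KIF23, at 0.14, were not called. The other kept KIF23 probe set, a dimmer one, was called lower, at -0.56 (adjusted p = 0.00901).

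Spindle assembly factors fell in 6 of 7 cases. GTSE1, a microtubule tip protein, had 11.01, 10.85 and 10.98 in scramble and 10.38, 10.37 and 10.63 with ETX, a fall of 0.48 ± 0.08 (adjusted p = 0.000542). NUSAP1 fell by 0.39, TPX2, the activator of AURKA, by 0.32, ASPM by 0.23 and HMMR by 0.22, and CKAP2 was not called, at -0.07. In the cytokinesis group PRC1, which bundles the microtubules of the central spindle, fell by 0.33 and CEP55, an abscission factor, by 0.28.

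ECT2, the exchange factor that activates RHOA at the division plane, went the other way from most. Its values were 10.09, 10.33 and 10.78 in scramble and 10.87, 10.86 and 11.03 with ETX, so that the arrays did not overlap but scramble had an SD of 0.35. The rise was 0.52 ± 0.17 (adjusted p = 0.0263). The call was lost on leaving out scramble 1 (0.37, adjusted p = 0.117), scramble 2 (0.49, 0.0763), ETX 1 (0.55, 0.0531), ETX 2 (0.55, 0.0501) or ETX 3 (0.47, 0.0742). The other kept probe set of ECT2 showed a difference of 0.00. The 3′ minus 5′ signal of the actin controls, a measure of RNA integrity, was 2.25, 2.19 and 1.76 on the 3 scramble arrays and 1.75 ± 0.06 with ETX. With that signal as a covariate neither rise was called, at 0.21 for ECT2 (adjusted p = 0.215) and 0.29 for MAD2L1 (adjusted p = 0.0611). The number of members lower with ETX was 44 with this covariate, under which the share of all genes called is not given here.

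Chromosome structure genes fell in 5 of 6 cases. TOP2A, the topoisomerase that untangles sister chromatids, had 12.49, 12.49 and 12.42 in scramble and 12.02, 12.09 and 12.15 with ETX, a fall of 0.38 ± 0.05 (adjusted p = 7.35e-05). The condensin subunits NCAPG, NCAPH and SMC4 fell by 0.34, 0.39 and 0.23, while SMC2 was not called, at 0.17. MKI67, which codes for the proliferation marker Ki-67, had 10.61, 10.45 and 10.53 in scramble and 10.05, 10.02 and 10.20 with ETX. It fell by 0.44 ± 0.06 (adjusted p = 0.000195) by its standing probe set, and the mean of its 4 kept probe sets was at -0.12 (adjusted p = 0.231). FOXM1, the transcription factor of late mitotic genes, had 10.58, 10.64 and 10.72 in scramble and 10.44, 10.48 and 10.37 with ETX. All ETX arrays were lower, and the fall was 0.22 ± 0.05 (adjusted p = 0.00777).

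**Figure D3:**
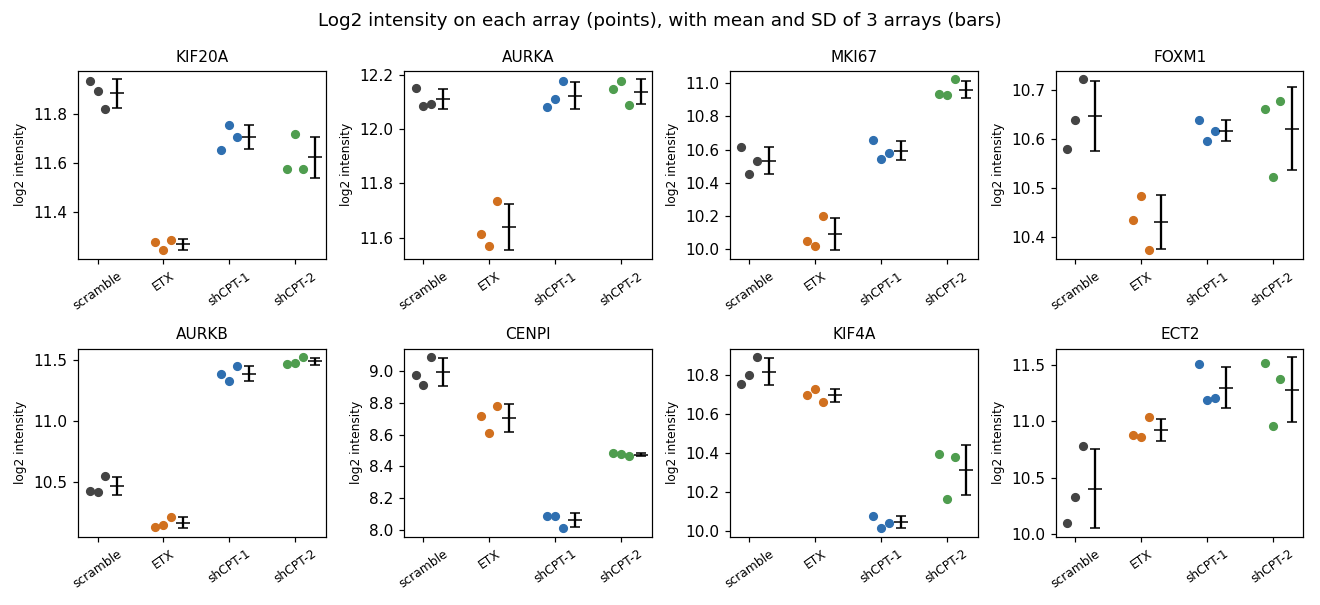
Log2 intensity on each array (points), with the mean and SD of the 3 arrays of each group (bars), for KIF20A, AURKA, MKI67, FOXM1, AURKB, CENPI, KIF4A and ECT2. KIF20A, AURKA, MKI67 and FOXM1 are lowest with ETX, AURKB is highest and CENPI and KIF4A lowest in the knockdowns, and ECT2 has a wide spread in scramble.

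With ETX, all kept probe sets of a gene had the same sign for 20 of the 29 members with several kept ones. Of the 108 kept member probe sets 62 were lower and 5 higher. The share over all kept probe sets was not computed for comparison. Probe sets of 1 gene were called in opposite directions for 2 of the 29 members with several kept ones. For CDC25C the standing probe set was at -0.40 and the other, dimmer one at 0.32. For MKI67 3 probe sets were at -0.44, -0.47 and -0.38 and the fourth was at 0.83.

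After CPT1 knockdown the mitosis genes moved both ways. With shCPT-1, 15 members rose, 10 fell and 34 did not pass the test, where 23.1% of all genes tested were called higher and 18% lower. The member shares were 25.4% and 16.9%, near those of all genes, and the member median was 0.06, against 0.01. Each knockdown was set against the same scramble arrays as ETX. The count of rises was 8 without scramble 1, 9 without shCPT-1 2 and 8 with the actin covariate, under which the count of falls was 6. The share of all genes called in these settings is not given here.

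CENPI and AURKB moved most with shCPT-1, followed by ECT2, KIF4A and NCAPG. CENPI, a subunit of the inner kinetochore, had 8.98, 8.92 and 9.09 in scramble and 8.09, 8.09 and 8.01 with shCPT-1. It fell by 0.93 ± 0.06, or 1.91-fold (adjusted p = 1.27e-07). KIF4A, a chromosome-bound motor that works with condensin, had 10.76, 10.80 and 10.89 in scramble and 10.08, 10.02 and 10.04 with shCPT-1, a fall of 0.77 ± 0.06 (adjusted p = 1.32e-06). The condensin subunits NCAPG and NCAPH fell by 0.54 ± 0.06 (adjusted p = 2.39e-05) and 0.46 ± 0.05 (adjusted p = 1.28e-05), while SMC4 of the same complex rose by 0.21 and SMC2 was not called, at 0.07. NCAPG had 12.29, 12.22 and 12.21 in scramble and 11.71, 11.70 and 11.69 with shCPT-1, and NCAPH had 10.25, 10.40 and 10.34 against 9.80, 9.91 and 9.88. The groups did not overlap for these 4 falling genes, but this was a condition for naming the largest falls. With shCPT-1 the groups did not overlap for 6585 of the 12887 genes tested. KNL1 had 10.57, 10.51 and 10.55 in scramble against 10.29, 10.30 and 10.31, and fell by 0.25 ± 0.04. GTSE1, at 10.67, 10.64 and 10.69 with shCPT-1, fell by 0.28 ± 0.08 (adjusted p = 0.0116). It was not called on its dim probe set less open to cross-hybridisation, with a mean of 6.62 (-0.12, adjusted p = 0.122). It was also not called with the actin covariate (-0.25, adjusted p = 0.0653). Its remaining kept probe sets were called lower, at -0.23, -0.25 and -0.30.

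AURKB had the largest rise with shCPT-1: 10.43, 10.42 and 10.56 in scramble against 11.38, 11.33 and 11.45. It rose by 0.92 ± 0.05, or 1.89-fold (adjusted p = 5.58e-08). Its other kept probe set was at 0.29, which was not called. Of the other genes of the complex, BIRC5 rose by 0.14 (adjusted p = 0.0198), and INCENP, at -0.09, and CDCA8, at -0.02, were not called. CCNB2 rose by 0.28 and CENPA, the histone variant that marks centromeres, by 0.28 as well.

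ECT2, MAD2L1 and PLK1 were also among the largest rises with shCPT-1. ECT2 was at 11.50, 11.19 and 11.20, a rise of 0.90 ± 0.17 (adjusted p = 0.00109), and its other kept probe set was at 0.44. MAD2L1 was at 10.76, 10.72 and 10.67, a rise of 0.46 ± 0.11 (adjusted p = 0.00617), which with the actin covariate was 0.28 (adjusted p = 0.0631). PLK1 was at 9.38, 9.02 and 9.13, a rise of 0.39 ± 0.12 (adjusted p = 0.0174). These 3 genes had a wide scramble spread, and scramble 3, the array with the lowest actin 3′ minus 5′ signal of its group, was the highest in each. The call for PLK1 was lost without scramble 1 (0.32, adjusted p = 0.0725), scramble 2 (0.36, 0.0583) or shCPT-1 1 (0.29, 0.0787), and with the actin covariate (0.16, 0.148). The mean actin 3′ minus 5′ signal was 1.73 ± 0.23 (SD) for shCPT-1 arrays and 1.68 ± 0.23 for those of shCPT-2.

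Of the genes with the largest falls under ETX, AURKA and ESPL1 were not called with shCPT-1. AURKA was at 12.08, 12.11 and 12.18, a difference of 0.01, and ESPL1 at 10.43, 10.57 and 10.60, a difference of -0.08. KIF20A, at 11.65, 11.76 and 11.71, fell by 0.18 (adjusted p = 0.016), KIF2C by 0.18 and CDC25B by 0.18. Of the genes whose values were followed throughout, CDK1 (12.65, 12.52 and 12.55), CCNA2 (10.81, 10.77 and 10.68), CCNB1 (12.44, 12.44 and 12.41), FOXM1 (10.64, 10.60 and 10.62), MKI67 (10.66, 10.54 and 10.58) and TOP2A (12.36, 12.40 and 12.42) were not called. For CDK1 the difference was 0.17 (adjusted p = 0.0659), while its other 3 kept probe sets were called higher, at 0.32, 0.34 and 0.75. Without scramble 3 CDK1 was called on its standing probe set (0.24) and CCNA2 was called as well (0.22). With all arrays, the kept TOP2A probe sets other than the standing one were called lower, at -0.30 and -0.37.

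After CPT2 knockdown members also moved both ways. With shCPT-2, 16 members rose, 12 fell and 31 did not pass, where 25.6% of all genes tested were called higher and 20.5% lower. The shares of the members were 27.1% and 20.3%, and their median was 0.01, against 0.00 over all genes.

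CENPI, at 8.48, 8.48 and 8.46 with shCPT-2, fell by 0.52 ± 0.06 (adjusted p = 1.13e-05). KIF4A, at 10.39, 10.17 and 10.38, fell by 0.51 ± 0.06 (adjusted p = 3.02e-05). NCAPG, at 11.78, 11.85 and 11.71, fell by 0.46 ± 0.06 and NCAPH, at 10.08, 10.03 and 10.08, by 0.27 ± 0.05. All of these arrays were below all scramble arrays, which was again a condition for naming the largest falls. With shCPT-2 the groups did not overlap for 6753 of the 12887 genes tested. The CDC25 phosphatases fell as well: CDC25B, at 11.00, 11.12 and 11.03, by 0.54 ± 0.05 (adjusted p = 1.44e-06), and CDC25C, at 8.61, 8.58 and 8.49 against 8.91, 8.81 and 8.89 in scramble, by 0.31 ± 0.04 (adjusted p = 0.000115). The mean of the 2 kept CDC25C probe sets was at -0.08 and was not called (adjusted p = 0.211).

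AURKB was again the largest rise, at 11.47, 11.48 and 11.53, which is 1.02 ± 0.05 above scramble (adjusted p = 1.49e-08), or 2.03-fold. Its other kept probe set was called as well, at 0.49. ECT2, at 11.51, 10.95 and 11.37, rose by 0.88 ± 0.17 (adjusted p = 0.00099), and its other kept probe set was at 0.23, not called. PLK1, at 9.50, 9.11 and 9.44, rose by 0.56 ± 0.12 (adjusted p = 0.00169). KIF23, a motor subunit of the centralspindlin complex, had 9.68, 9.77 and 10.04 in scramble and 10.52, 10.25 and 10.38 with shCPT-2. It rose by 0.55 ± 0.09 (adjusted p = 0.000303), but on its dimmer probe set less open to cross-hybridisation it was at 0.11 (adjusted p = 0.56).

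MKI67 was higher with shCPT-2, at 10.93, 10.93 and 11.02, a rise of 0.43 (adjusted p = 0.000103). The checkpoint genes BUB3, at 12.82, 12.79 and 12.78 against 12.49, 12.53 and 12.53 in scramble, and MAD2L1 rose by 0.28 and 0.44. TOP2A, at 12.33, 12.33 and 12.28, fell by 0.16 (adjusted p = 0.0133), a call that was lost without shCPT-2 3 (-0.14, adjusted p = 0.0567) and with the actin covariate (-0.10, adjusted p = 0.133). The other kept TOP2A probe sets were called lower, at -0.71 (adjusted p = 4.86e-05) and -0.41 (adjusted p = 0.0212). CDK1 (12.63, 12.46 and 12.55), CCNA2 (10.93, 10.63 and 10.86), CCNB1 (12.34, 12.25 and 12.32), AURKA (12.15, 12.18 and 12.09) and FOXM1 (10.66, 10.52 and 10.68) were not called on their standing probe sets. The other 3 kept CDK1 probe sets were called higher, at 0.33, 0.35 and 0.71, and CDK1 was called without scramble 3 (0.22). The other kept CCNB1 probe set was called lower, at -0.22 (adjusted p = 0.00584). CCNA2 was close, at 0.20 (adjusted p = 0.0501), and was called without scramble 3 (0.27) and without shCPT-2 2 (0.29). Opposite calls among probe sets were found for KNL1, at 0.36 and -0.94 on its dimmer probe sets, and for SMC4, at 0.18 and 0.48 on its brighter probe sets and -0.41 on the dimmest.

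The difference between a knockdown and ETX was tested directly. Against ETX, shCPT-1 was higher for 39 members and lower for 3, where 22.9% of all genes tested were called higher and 19.8% lower, and the median was 0.27, against 0.02. The shCPT-2 arrays were higher for 42 members and lower for 2, where 24.9% and 20.9% of all genes were called, with a median of 0.25, against 0.02. AURKB differed most, by 1.22 for shCPT-1 (adjusted p = 3.32e-09) and 1.32 for shCPT-2 (adjusted p = 1.86e-09). NDC80 had 11.19, 11.15 and 11.39 with ETX, 11.84, 11.80 and 11.84 with shCPT-1 and 11.84, 11.89 and 11.82 with shCPT-2. It was thus higher by 0.58 and 0.61. UBE2C, at 12.05, 12.04 and 12.17 with ETX and 12.68, 12.64 and 12.67 with shCPT-1, was higher by 0.58, and MKI67 was higher by 0.87 in shCPT-2 (adjusted p = 2.41e-07).

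All 4 anaphase promotion genes, FOXM1, AURKA and TPX2 were among those higher in shCPT-1 than with ETX, by 0.19 for FOXM1, 0.48 for AURKA and 0.44 for TPX2. The exceptions were KIF4A and CENPI, lower than with ETX in both knockdowns, at -0.65 and -0.64 for shCPT-1 and at -0.38 and -0.23 for shCPT-2. NCAPG was lower by -0.20 in shCPT-1 (adjusted p = 0.0184), a call lost without ETX 3 (-0.13, adjusted p = 0.0674) or shCPT-1 3 (-0.20, adjusted p = 0.0535). For shCPT-2 against ETX, opposite calls among probe sets were found for GTSE1, with 3 of its 5 kept probe sets called higher and 1 called lower, at -0.24, and for ASPM, at 0.20 and -0.79.

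Between the knockdowns most members did not pass the test. Between shCPT-2 and shCPT-1, 9 members were higher in shCPT-2, 8 were lower and 42 did not pass the test, where 17.7% and 17.8% of all genes were called, and the median was 0.01. The cyclin and CDC25 group made up 4 of the 8 lower. CCNB2 had 11.17, 11.05 and 11.02 in shCPT-1 and 10.74, 10.64 and 10.69 in shCPT-2, lower by -0.39 (adjusted p = 0.000125). CDC25B and CDC25C were lower by -0.36 and -0.32. CENPI was higher by 0.41, MKI67 by 0.37 and BUB3 by 0.28 (adjusted p = 0.000186).

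Genes near these in the pathway but outside the 59 were followed in lists. Of 62 tested further mitosis genes, 41 were lower and 2 higher with ETX, with a median of -0.26. Those with small p-values included KIFC1, a minus-end kinesin, at -0.73, TACC3, a spindle protein that AURKA phosphorylates, at -0.65, CDCA3 at -0.56 and SPAG5 at -0.43. The lower calls with ETX make 66.1% of this list, against 19.4% of all genes. With shCPT-1 10 were higher (16.1%, against 23.1% of all genes) and 15 lower (24.2%, against 18%). With shCPT-2 12 were higher and 12 lower (19.4% each, against 25.6% and 20.5%). TACC3 fell by 0.45 with shCPT-1, while KNTC1, a kinetochore protein, rose by 0.56 with shCPT-2.

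In the anaphase-promoting complex and cohesin list, 9 of 25 tested genes were lower with ETX (36%, against 19.4% of all genes) and 1 was higher (4%, against 21.9%). With shCPT-1 8 were lower (32%, against 18%) and 5 higher (20%, against 23.1%). With shCPT-2 9 were lower (36%, against 20.5%) and 4 higher (16%, against 25.6%). CDC27, a core subunit, was at -0.87 with ETX and -1.16 with shCPT-2. ANAPC5 was at 0.40 with shCPT-1 and 0.47 with shCPT-2, and ANAPC4 at -0.60 and -0.31. Of 22 tested regulators of cell cycle transcription, 7 were lower (31.8%, against 19.4% of all genes) and 2 higher (9.09%, against 21.9%) with ETX, among the lower E2F2 at -0.53 and MYBL2, the activator subunit noted above, at -0.18. With shCPT-1 9 were lower (40.9%, against 18%) and 7 higher (31.8%, against 23.1%). With shCPT-2 1 was lower (4.55%, against 20.5%) and 8 were higher (36.4%, against 25.6%), with RBL2, a repressor subunit of DREAM, at 0.42.

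Of 42 tested DNA replication genes 19 were lower (45.2%, against 19.4% of all genes) and 4 higher (9.52%, against 21.9%) with ETX, with LIG1 at -0.51 and MCM5 at -0.46 and a median of -0.11. With shCPT-1 13 were lower (31%, against 18%) and 5 higher (11.9%, against 23.1%). With shCPT-2 7 were lower (16.7%, against 20.5%) and 14 higher (33.3%, against 25.6%). The list of G1 cyclins and CDK inhibitors also held CDK2, CDK4, CDK6, CDC25A and MYC. Of its 15 tested genes 7 were lower (46.7%, against 19.4%) and 5 higher (33.3%, against 21.9%) with ETX. CCND2, a G1 cyclin, was at 0.92 and CDKN1A, the p21 inhibitor, at 0.36, while CCNE2 was at -0.39. CCND2 was at 0.58 with shCPT-1 and at -0.63 with shCPT-2.

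**Figure D4:**
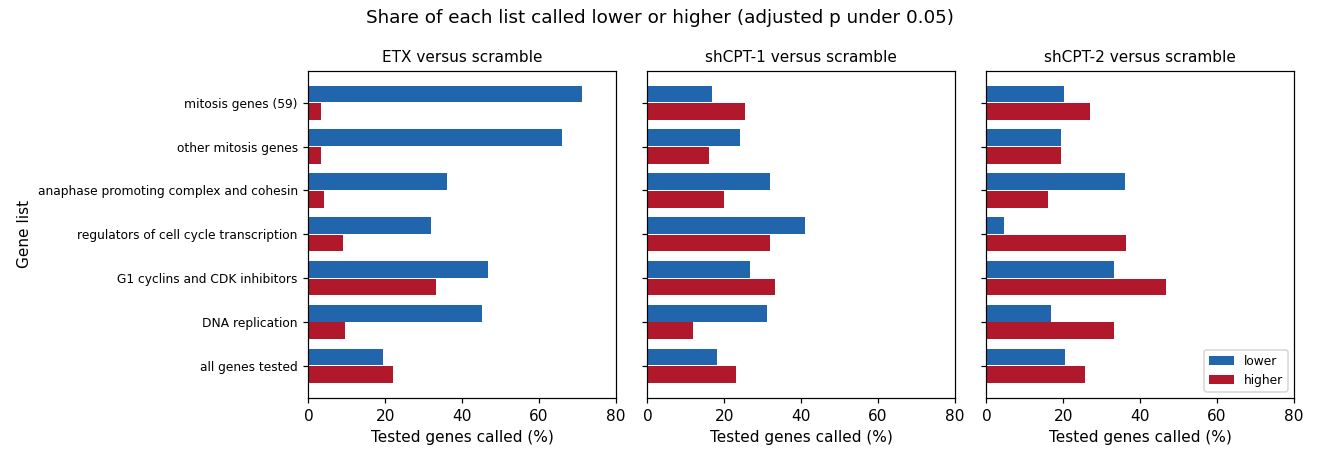
Percent of the tested genes of each list, and of all genes tested, that were called lower or higher against scramble, for each of the 3 other groups. With ETX the lower bars of the 59 mitosis genes (71.2%) and of the other mitosis genes are the longest, against 19.4% of all genes tested, and in the knockdowns the bars of the 59 mitosis genes are close to those of all genes.

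The genes that lie next to AURKB, CENPI, ECT2, KIF4A, PLK1 and KIF23 on the chromosome were examined after the members' values had been seen. For each, the 5 nearest tested genes on either side were taken in RefSeq order (GRCh38.p14). Around AURKB on chromosome 17, 8 of 10 neighbours were higher and 0 lower with shCPT-1, with a median of 0.61, and 8 were higher and 0 lower with shCPT-2, with a median of 0.67. RANGRF was at 1.44 and 1.39, CTC1 at 0.97 and 1.19 and CNTROB at 0.85 and 0.95. With ETX 2 neighbours were higher and 2 lower.

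Around CENPI on the X chromosome, 9 of 10 neighbours were lower with shCPT-1, with a median of -0.52 and GLA at -1.03, and 6 were lower and 1 higher with shCPT-2, with a median of -0.27. With ETX 3 of these neighbours were higher and 0 lower. Around ECT2 on chromosome 3, 9 were higher and 0 lower with shCPT-1, 7 and 0 with shCPT-2 and 6 and 0 with ETX. Around KIF4A 5 of 10 were lower and 0 higher in each knockdown, at medians of -0.25 and -0.26, and around PLK1 4 were higher in each, with 2 and 1 lower. Around KIF23 5 were higher and 3 lower with shCPT-1, and 2 were higher and 4 lower with shCPT-2, where KIF23 was at 0.55 and the median of its neighbours at -0.06.

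**Figure D5:**
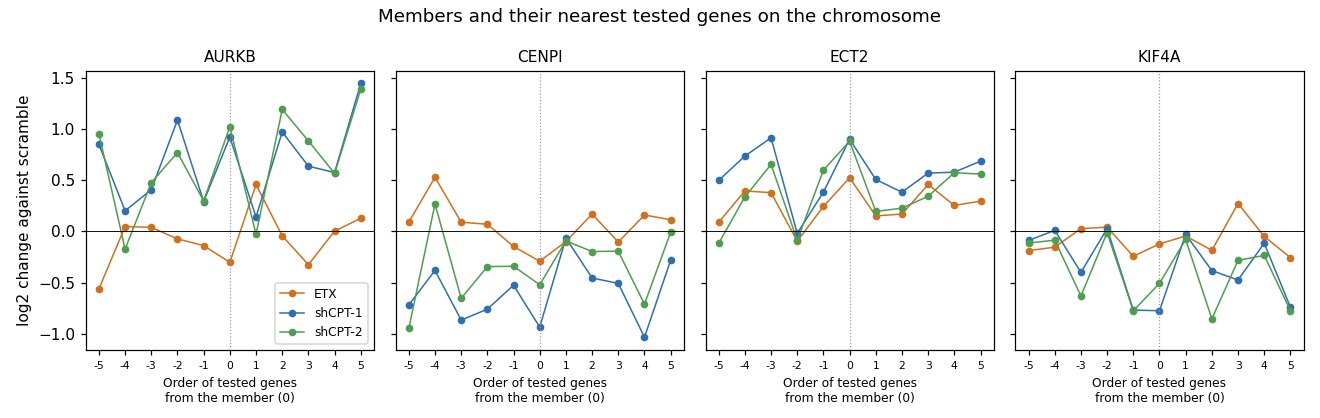
Log2 difference from scramble of AURKB, CENPI, ECT2 and KIF4A (position 0) and of the 5 nearest tested genes on either side in gene order, for ETX, shCPT-1 and shCPT-2. In both knockdowns the neighbours of AURKB lie mostly above 0 and those of CENPI mostly below 0, while the ETX lines of both stay nearer 0.

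Among 12623 tested genes with 10 such neighbours, 2.27% had at least 8 of them called higher with shCPT-1 and 1.7% at least 8 called lower. With shCPT-2 the shares were 1.95% and 1.39%, and with ETX 0.753% and 0.198%. Of the 59 members, AURKB, ECT2 and SMC4 were in such a neighbourhood of higher genes with shCPT-1 and CENPI in one of lower genes. With shCPT-2 they were AURKB, NDC80 and SMC4, all of higher genes, and with ETX there were 0. The part of chromosome position in the values of the members was not tested.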

How the data were processed

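The 12 arrays were mapped by their labels to 4 groups of 3. The authors deposited linear intensities, 1 for each probe set on each array. RMA, which corrects background, normalizes across arrays and summarises probes, was used per the submitters' processing notes, with settings not given in the sources used here. Log2 was taken of the deposited values, and 28630 of 54675 probe sets passed a filter, signal over the array median on 3 or more arrays. The kept probe set with the highest mean stood for its gene (12887 genes); 108 of 121 member probe sets were kept. Groups were compared with limma 3.58.1 in R 4.3.3 on all 12 arrays, two-sided, with no covariate. Calls were made at 0.05 after Benjamini-Hochberg adjustment over all genes tested. For single probe sets the adjustment was over the 23565 kept probe sets with 1 gene symbol. The errors are the model's standard errors. The labels give no pairing beyond the replicate number, so no block was used in the main fit. The members, lists and tests were chosen with earlier results of these data known. Named genes are CDK1, CCNA2, CCNB1, PLK1, AURKA, FOXM1, MKI67 and TOP2A, the 6 largest falls and 4 largest rises per comparison with scramble (3 per direction between treatments) among called members without overlap, and list genes of smallest p. Others, such as the chromosome neighbourhoods and MYBL2, were named after their values were seen. Promoters and figures used Python 3.11.15, pandas 2.3.3 and matplotlib 3.10.9. The fit was tested on simulated data. Alternatives were other filters, normalizations, probe set rules, variance models, a replicate block, an actin covariate and arrays left out.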

Additional observations from a re-analysis of the deposited data

How the results depend on the processing

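The fall of the mitosis genes with ETX was called for 28 to 44 members over all alternatives run, the 28 being of 41 members that had a probe set not open to cross-hybridisation; on leaving out each array in turn it was 37 to 42. The 2 rises with ETX became 0 without probe sets open to cross-hybridisation, 0 with the actin covariate and 5 without the 4 arrays (1 per group) that correlate least with their group, and 1 to 4 on leaving out each array. For shCPT-1 against scramble, 15 rises became 8 and 10 falls became 6 with the actin covariate, and 23 rises were called without the 4 arrays; leaving out each array gave 8 to 19 rises and 9 to 11 falls. Without the 4 arrays, 5 rather than 3 members were lower in shCPT-1 than with ETX, and 16 rather than 9 higher in shCPT-2 than in shCPT-1. Without cross-hybridising probe sets, 5 rather than 8 were lower in shCPT-2 than in shCPT-1. The counts in this section are given without the share of all genes called in the same setting. They therefore do not set the members apart from other genes. The cause of these moves was not tested.

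With the replicate number as a block, 40 members were lower and 2 higher with ETX, 11 higher and 10 lower with shCPT-1, and 16 higher and 11 lower with shCPT-2. Deviations of same-numbered arrays correlated at -0.46 to 0.33 (median 0.04, 18 pairs), and those of other arrays at -0.45 to 0.61 (median 0.03, 36 pairs). These are deviations from means of only 3 arrays, so they cannot settle whether the numbers pair the arrays. For the genes named, 1454 of the alternative values stayed on the same side of the threshold, 25 gained a call, 23 lost one and 0 changed direction while called. The 1454 include uncalled values that changed sign, as for PLK1 with ETX, which ranged from -0.17 to 0.15. All 59 members had signal above the array median on all 12 arrays, and each group had 3 arrays.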
